A study of Mus musculus with 6 samples.

Results

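Mrc1, Msr1, Trem2, Gpnmb and Tyrobp are genes that mark scavenging and TREM2-dependent states of tissue macrophages. They were taken by name from a list of macrophage state genes, and 5 of 5 were present among the 13912 genes measured. RNA was sequenced in 6 libraries of 4T1 cells, a mouse mammary carcinoma line of the balb/c strain that here carries the Luc2 luciferase and a red fluorescent protein (RFP) in both groups. The cultured group was 3 libraries of the line grown in culture and not injected. The tumour group was 3 libraries of cells that the labels call 4T1-Luc2-RFP, sorted by fluorescence (FACS) out of tumours grown in mammary glands in the MIND (intraductal) model. The titles of all 3 tumour libraries also carry the word Right. The comparison asks how the carcinoma cells differed after growth in the mammary duct. No label gives the age of the mice, the gate of the sort or a treatment, and sorting is named for the tumour group alone. Separate mice or separate cultures are not named for the libraries of a group, so p-values measure only how far these libraries differ, and that spread may be technical.

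Macrophages clear dying cells, lipoproteins and glycoproteins through surface receptors. Mrc1 encodes the mannose receptor CD206, an endocytic lectin for mannose-bearing glycans, and Msr1 encodes the class A scavenger receptor CD204, which takes up modified lipoproteins. Trem2 encodes an immunoglobulin-like receptor for lipids and apolipoproteins. It has no signalling tail of its own and works through the adaptor encoded by Tyrobp (DAP12), whose phosphorylated tyrosine motif (ITAM) recruits the kinase Syk. Gpnmb encodes a glycoprotein of lysosomes and the cell surface that rises in lipid-laden macrophages, and it is also made by melanocytes, osteoclasts and some carcinoma cells.

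Promoter sequences from RefSeq (GRCm38.p6) were matched for 3 of the 5 genes, and these 3 are shown. No sequence was matched for Msr1 and Tyrobp. Mrc1 and Trem2 were called higher in the tumour libraries and Gpnmb was not called, and a link of the motifs to this was not tested. Each runs from 250 bases before to 50 bases after the RefSeq start, 5′ to 3′ on the gene's strand, and capitals mark matches on either strand to the motifs searched. The windows are chr2:14229164-14229463, chr17:48346151-48346450 and chr6:49036268-49036567, all plus strand.
Mrc1: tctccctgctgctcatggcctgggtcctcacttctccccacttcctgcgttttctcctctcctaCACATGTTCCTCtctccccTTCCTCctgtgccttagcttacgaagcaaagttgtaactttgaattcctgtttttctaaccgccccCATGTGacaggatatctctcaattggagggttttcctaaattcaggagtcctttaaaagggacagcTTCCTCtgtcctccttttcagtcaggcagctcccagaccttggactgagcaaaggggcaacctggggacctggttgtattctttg
Trem2: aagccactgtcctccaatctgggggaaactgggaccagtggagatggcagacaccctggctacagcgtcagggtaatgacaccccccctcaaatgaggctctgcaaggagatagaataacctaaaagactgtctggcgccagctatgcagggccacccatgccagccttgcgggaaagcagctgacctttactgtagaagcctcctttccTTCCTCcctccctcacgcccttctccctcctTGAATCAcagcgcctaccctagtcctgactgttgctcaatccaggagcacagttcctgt
Gpnmb: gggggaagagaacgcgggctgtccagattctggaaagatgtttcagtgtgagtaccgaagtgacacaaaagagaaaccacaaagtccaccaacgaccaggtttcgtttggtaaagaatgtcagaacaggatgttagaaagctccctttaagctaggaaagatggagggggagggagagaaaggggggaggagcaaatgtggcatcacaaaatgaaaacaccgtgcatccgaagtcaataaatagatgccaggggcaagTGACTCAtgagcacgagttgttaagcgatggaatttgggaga
GAGGAA, the core of ETS factors such as PU.1, matched 3 times in the Mrc1 window, 1 time in that of Trem2 and 0 times in that of Gpnmb, and is held by 28.3% of 32851 promoters of this length. CATGTG, a motif of MITF factors, matched 2 times in Mrc1, where 1 match adjoins a GAGGAA match without overlap, and is held by 14.2% of promoters. CACGTG, its palindromic form, had no match in the 3 windows and is held by 7.15%. TGANTCA, the AP-1 motif, matched 1 time each in Trem2 and Gpnmb and is held by 7.81%. A match is a description of letters and not a site of binding.

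Msr1, Trem2 and Tyrobp were at a trace in culture and abundant in the tumour libraries. Mrc1 was also abundant in the tumour libraries, but its cultured mean was 5.44 CPM, against 8.46 CPM for Gpnmb. Gpnmb was present in both groups at overlapping levels. Mrc1, Msr1, Trem2 and Tyrobp were called higher in the tumour group, which is 4 of 5 genes against 29.5% of all 13912 genes (limma with a variance trend, Benjamini-Hochberg adjusted p under 0.05). None of the 5 was called lower, against 18.8% of all genes, and a call in either direction was made for 48.2%. The count is partly set by which genes the table holds: each had at least 61 reads over the 6 libraries. Trem2, Tyrobp and Msr1 had 1, 6 and 17 reads over the 3 cultured libraries, so they are in the table through their tumour reads. Mrc1, with 648 cultured reads, and Gpnmb, with 1089, had more than that minimum in culture alone. The same 4 genes had every tumour library above every cultured library, as did 34.6% of all genes, and groups apart in either direction were found for 59.8%.

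Library totals were 35448588 to 41469090 reads, at which counting error matters mainly for genes near 0 reads. Levels are given in CPM, read counts scaled to library size, and changes are differences of mean log2 CPM, tumour minus cultured, with limma's standard error (SE). Pairs of cultured libraries correlated at 0.968 to 0.983 across genes, pairs of tumour libraries at 0.981 to 0.990 and pairs between groups at 0.674 to 0.754. All 17 macrophage markers listed were called higher in the tumour group, from a summed 21.3 to 35.7 CPM in the cultured libraries to 6807 to 9906 CPM in the tumour libraries. None of the 17 was at 0 over all cultured libraries, although Fcgr1 was at 0 in cultured library 3 and Spi1 in cultured library 1. The carcinoma epithelium list summed to 2793 to 3721 CPM in culture and to 2841 to 3321 CPM in the tumour libraries. Its genes did not move alike. Of 11 in the table, Krt14 was called higher and 4 were called lower (Krt7, Cdh1, Elf3 and Grhl2), against 18.8% of all genes called lower. The other 6 were not called. Other cell types' markers moved too: 9 of 9 fibroblast markers were called higher (23.6 to 51.6 CPM summed in culture, 6230 to 8002 CPM in the tumour libraries), as were 9 of 9 neutrophil markers (0.0883 to 0.446 and 231 to 2707 CPM) and 7 of 7 endothelial markers (1.48 to 2.87 and 99.1 to 149 CPM). Over all genes, 29.5% were called higher. Fewer than 61 cultured reads were found for 13 of 17 macrophage and 7 of 9 fibroblast markers. The same held for 9 of 9 neutrophil and 6 of 7 endothelial markers, so these genes are in the table through their tumour reads. The libraries labelled as sorted carcinoma cells thus held transcripts of these cell types beside epithelial ones, and their part in the results that follow was not tested. In bulk RNA, fewer cells of a type and less RNA per cell cannot be told apart.

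Trem2 lies on chromosome 17 at 48346401 to 48354147, plus strand (mm10, protein-coding). Its level was 0 CPM in cultured libraries 1 and 2 and 0.0287 CPM in cultured library 3, a single read in all. In tumour libraries 1, 2 and 3 it was 79.1, 65.0 and 93.0 CPM, from 2918, 2643 and 3526 reads. The tumour levels were close to one another and no cultured library came near them. The tumour mean was 79.1 ± 14.0 CPM (SD, n = 3). The ratio of tumour to cultured reads, each pooled over the group and scaled to the pooled library sizes, was 9663. Its 95% interval for counting error alone was 1734 to 381707, since the denominator is 1 read. Later ratios given with a counting interval were pooled in the same way. The log2 change was 12.11 (SE 0.56, limma adjusted p = 2.06e-06), and it was 6.29 with 1 CPM added before the logarithm in place of 0.5 reads.

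Tyrobp, which encodes the signalling partner of TREM2, lies on chromosome 7 at 30413760 to 30417585, plus strand. The cultured libraries held 4, 2 and 0 reads of it, or 0.0938, 0.0442 and 0 CPM. The tumour libraries held 9924, 6772 and 8789 reads, or 269, 167 and 232 CPM. Tumour library 2 was the lowest, and the groups were far apart. The mean rose from 0.0460 ± 0.0469 to 223 ± 51.9 CPM (SD, n = 3 each). The log2 change was 12.29 (12.285 before rounding; SE 0.68, limma adjusted p = 4.45e-06), and it was 7.71 with 1 CPM added.

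Msr1, the class A scavenger receptor gene, lies on chromosome 8 at 39581685 to 39642673, minus strand. Its cultured levels were 0.211, 0.0883 and 0.115 CPM, from 9, 4 and 4 reads. Its tumour levels were 488, 354 and 454 CPM. The coefficient of variation between tumour libraries was 16.2%, near the 17.7% of Trem2. The mean rose from 0.138 ± 0.0646 to 432 ± 69.8 CPM (SD, n = 3 each), and the change was 11.56 on the log2 scale (SE 0.34, limma adjusted p = 6.42e-07).

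Mrc1, the mannose receptor gene, lies on chromosome 2 at 14229392 to 14332057, plus strand. Its cultured levels were 4.34, 4.40 and 7.58 CPM, from 185, 199 and 264 reads. Its tumour levels were 354, 365 and 810.0 CPM. The groups did not overlap, and tumour library 3 stood above the other two. The mean rose from 5.44 ± 1.85 to 509.5 ± 260.3 CPM (SD, n = 3 each), and the change was 6.48 on the log2 scale (SE 0.37, limma adjusted p = 4.90e-06). Mrc1 thus kept a measurable level in culture: its cultured mean was 1.07% of its tumour mean. For Msr1, Tyrobp and Trem2 that share was 0.0320%, 0.0207% and 0.0121%. Among the macrophage markers it was 0.0301% for Adgre1, the F4/80 antigen, 0.0682% for Csf1r, the receptor for the macrophage growth factor CSF1, 0.0128% for Ptprc, the leukocyte antigen CD45, and at most 4.45%, for Cd68.

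Gpnmb lies on chromosome 6 at 49036546 to 49070929, plus strand. Its cultured levels were 3.87, 16.7 and 4.80 CPM, from 165, 757 and 167 reads. Its tumour levels were 19.4, 7.36 and 15.7 CPM, from 715, 299 and 594 reads. The groups overlapped: cultured library 2 was above tumour libraries 2 and 3. The means were 8.46 ± 7.17 CPM in culture and 14.1 ± 6.16 CPM in the tumour libraries (SD, n = 3 each). The log2 change of 0.95 (SE 0.60) was not called (limma adjusted p = 0.228), and its 95% interval ran from -0.45 to 2.34, a fold of 0.733 to 5.08. Without cultured library 2 the change was 1.60 and was called (limma adjusted p = 0.0246).

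Cultured library 2 exceeded the mean of the other cultured libraries by 1.95 on the log2 scale for Gpnmb. Of 10558 genes whose mean log2 CPM in culture reached 1, 0.597% exceeded it by more. Plin2, the lipid droplet coat gene, which was picked after its values were seen, had 475, 1494 and 468 CPM in cultured libraries 1, 2 and 3, and 506, 391 and 505 CPM in the tumour libraries. Cultured library 2 was thus the highest cultured library for Plin2 too, above every tumour library, and the Plin2 change of -0.58 was not called (limma adjusted p = 0.310).

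**Figure D1:**
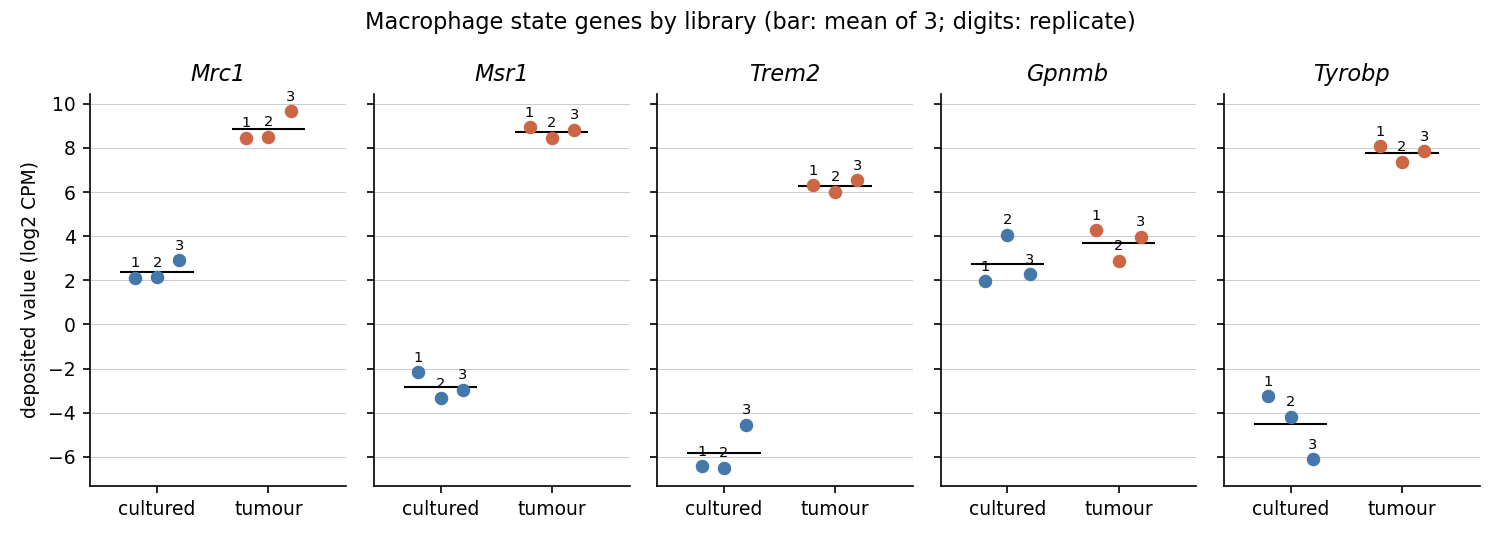
Log2 CPM of Mrc1, Msr1, Trem2, Gpnmb and Tyrobp in each of the 3 cultured and 3 tumour libraries, numbered by library, with group means of the log2 values. The cultured and tumour points overlap for Gpnmb only, and tumour library 3 is highest for Mrc1 at 9.66 log2 CPM.

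Levels of different genes were compared per kilobase (kb) of exon. In the tumour libraries Tyrobp was highest at 334 ± 77.8 CPM per kb (SD, n = 3), and Gpnmb was lowest at 2.17 ± 0.946. Between them Mrc1 was at 80.0 ± 40.9, Msr1 at 68.0 ± 11.0 and Trem2 at 16.0 ± 2.83 CPM per kb. Mrc1 and Msr1 did not differ beyond their spread. Over the length of the principal coding transcript the order in the middle changed, with Msr1 at 303, Mrc1 at 94.8 and Trem2 at 72.7 CPM per kb, while Tyrobp at 395 stayed first and Gpnmb at 3.82 last. In culture Gpnmb came first at 1.30 CPM per kb and Mrc1 next at 0.854, a difference within their spread, and Tyrobp, Msr1 and Trem2 were at 0.0690, 0.0218 and 0.00193.

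**Figure D2:**
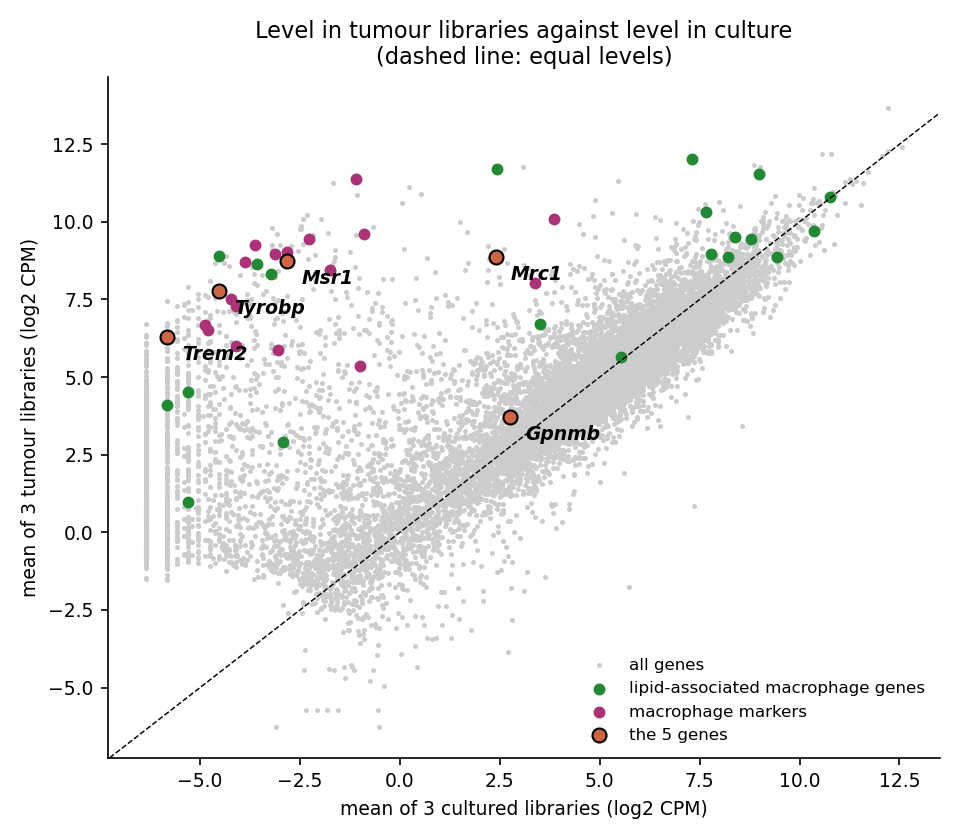
Mean log2 CPM of all 13912 genes in the tumour libraries against the cultured libraries, with the 5 genes, the lipid-associated macrophage genes and the macrophage markers in colour. Tyrobp, Trem2 and Msr1 lie at the low end of the cultured axis. Of the 5 genes, Gpnmb, with a change of 0.95, lies nearest to the line of equal levels.

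The tumour libraries did not order the 5 genes alike. Tumour library 3 exceeded the mean of tumour libraries 1 and 2 by 1.17 on the log2 scale for Mrc1, by 0.37 for Trem2, by 0.39 for Gpnmb and by 0.13 for both Msr1 and Tyrobp. Of 8691 genes whose mean log2 CPM in the tumour libraries reached 4, 0.311% exceeded the Mrc1 value. The 17 macrophage markers spanned -0.21 to 0.48 by the same measure, with a median of 0.30, so Mrc1 lay outside their range and the other 4 genes within it.

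Genes of the alternative activation list, which IL-4, IL-10 and glucocorticoids are known to induce in macrophages, held several that were high in tumour library 3 as Mrc1 was. Cd163, the haemoglobin scavenger receptor, had 67.0, 95.6 and 260.1 CPM in tumour libraries 1, 2 and 3, and Lyve1, a hyaluronan receptor of perivascular macrophages, had 27.9, 31.8 and 86.6 CPM. Folr2, a folate receptor of resident macrophages, had 42.3, 60.8 and 101 CPM. Of the 18 genes in the list, Mrc1 and Msr1 included, 12 were highest in tumour library 3, against 8 of 17 macrophage markers, 9 of 22 lipid-associated macrophage genes, 6 of 9 fibroblast markers and 0 of 13 genes of the classical activation list. The list's median excess in tumour library 3 was 0.77, against 0.30 for the macrophage markers and 0.21 for the fibroblast markers, of which Dcn had 60.1, 67.6 and 151 CPM. Folr2 and Dcn were picked after their values were seen, and these values describe 1 library and were not tested.

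Tumour library 2 was the lowest tumour library for 4 of the 5 genes, and for Mrc1 library 1 was the lowest. Library 2 fell short of the mean of tumour libraries 1 and 3 by 0.40 for Trem2, 0.41 for Msr1, 0.58 for Tyrobp and 1.24 for Gpnmb on the log2 scale. The shortfall of 0.55 for Mrc1 went with the high level in library 3, since libraries 1 and 2 were at 354 and 365 CPM. The macrophage markers had a median of -0.34 by this measure. Neutrophil markers were lower still in that library, with medians of 5.89, 2.15 and 4.81 log2 CPM in tumour libraries 1, 2 and 3. Taken relative to the median macrophage marker of the same library, Trem2, Msr1 and Tyrobp spanned 0.27, 0.35 and 0.38 over the tumour libraries, while Gpnmb spanned 0.85 and Mrc1 1.03.

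**Figure D3:**
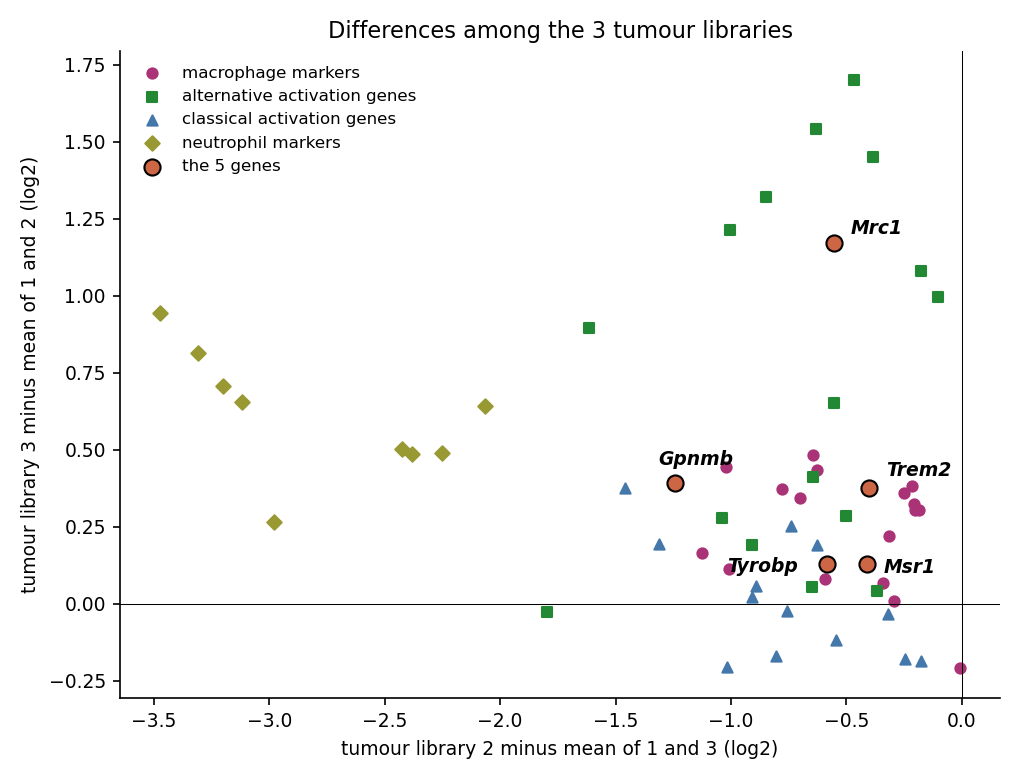
Difference of tumour library 3 from the mean of libraries 1 and 2 (vertical axis) against the difference of tumour library 2 from the mean of libraries 1 and 3, in log2 CPM, for the 5 genes, the alternative and classical activation genes, and the macrophage and neutrophil markers. Mrc1 lies at 1.17 on the first measure and Gpnmb at -1.24 on the second, and Msr1, Trem2 and Tyrobp lie among the macrophage markers.

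Genes of the TREM2 pathway were described by lists chosen by function. Over all genes, 29.5% were called higher and 18.8% lower. In every list, genes with fewer than 61 cultured reads are in the table through their tumour reads. Such genes partly set the counts of higher calls. Of 5 genes for TREM2 ligands, 4 were called higher and 1 lower, with a median change of 1.67 against 0.08 over all genes. Apoe, the apolipoprotein that TREM2 binds, rose from 5.79 ± 2.74 to 3347 ± 410.3 CPM, a log2 change of 9.26, and Lpl, lipoprotein lipase, rose from 2 cultured reads to 23.2 ± 4.60 CPM, a ratio of 1413 with a 95% counting interval of 391 to 11676. Il34, which encodes a ligand of the CSF1 receptor, fell from 37.4 ± 6.15 to 18.4 ± 1.78 CPM (limma adjusted p = 0.00336).

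A list of TREM family receptors and other receptors that work through ITAM adaptors had 14 genes in the table, Trem2 included. All 14 were called higher, with a median change of 8.71. Each of the 14 had fewer than 61 reads over the cultured libraries, so all are in the table through their tumour reads. Siglec15 rose least, from 0.256 to 0.622 CPM, and its call did not hold under 10 of 13 alternatives, among them quantile normalization, where it was called lower. The Oscar call was also lost under quantile normalization (limma adjusted p = 0.406). Trem1, the activating receptor of neutrophils and monocytes, had 385, 99.5 and 187 CPM in tumour libraries 1, 2 and 3. It thus varied more than Trem2. Trem1 shared its order over the tumour libraries with the neutrophil markers, and also with Msr1, Tyrobp and Gpnmb. Trem1, Trem3, Treml4 and Treml2 lie within 250000 bases of Trem2 on chromosome 17, all called higher, and all were lowest in tumour library 2. Nfya, on the other side of Trem2, was not called, with a change of 0.05 (limma adjusted p = 0.868).

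Of 17 genes of ITAM adaptors and their kinases, Tyrobp included, 16 were called higher and 0 lower, with a median change of 10.28. Fewer than 61 cultured reads were found for 11 of the 17. The Vav3 call held in 7 of 14 alternatives. Syk, the kinase recruited by the ITAM, went from 0.0330 ± 0.0354 to 219.6 ± 103.5 CPM, a change of 12.52. Fcer1g, the other ITAM adaptor of myeloid receptors, rose from 3 cultured reads to 167 ± 43.5 CPM, a ratio of 6760.3 with a 95% counting interval of 2313 to 32784. Blnk, a B cell linker adaptor, was at 13.3 CPM in culture and 11.6 CPM in the tumour libraries and was not called. Hcst, the DAP10 adaptor, lies 126 bases from Tyrobp on the opposite strand, with the 3′ ends of the genes facing each other, and had 4.47, 2.07 and 3.69 CPM in the tumour libraries. Whether the library kit kept strand is not given in the sources used here, so reads of overlapping or antisense genes cannot be told apart.

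Of 7 genes that restrain ITAM signalling, 6 were called higher and 0 lower, with a median of 3.54. The Ubash3b call held in 9 of 14 alternatives. Inpp5d, the SHIP1 lipid phosphatase, rose by 7.93, and Cblb, a ubiquitin ligase, was at 53.5 and 54.1 CPM and was not called. Among 4 proteases that shed TREM2 or GPNMB, Adam8, Adam10 and Adam17 were called higher and Adam9 was not, with a median of 0.91. Scaled to the carcinoma epithelium list, Adam8 alone was called. That setting subtracts the list's median level in each library. The median gene was Epcam in culture and Krt14 or Cdh1 in the tumour libraries, which lowers every tumour value against culture. Krt14 was itself called higher, by 2.13. The Adam17 call held in 8 of 14 alternatives (adjusted p of 0.0601 to 0.684 in the others), and Adam9 was called higher with library weights (adjusted p = 0.0379) and without cultured library 1 (adjusted p = 0.0490).

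Receptor families of Msr1 and Mrc1 were counted with these genes included. Of 18 scavenger receptor genes in the table, Msr1 among them, 14 were called higher and 0 lower, with a median change of 2.74. Colec12, a class A relative of Msr1, rose from 2 cultured reads to 159 ± 29.6 CPM, a ratio of 9686 with a 95% counting interval of 2681 to 79985. Cd36, the class B receptor, had 0 cultured reads and was at least 599-fold higher. Scarb1, the lipoprotein receptor, was at 95.5 CPM in culture and 82.9 CPM in the tumour libraries and was not called.

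In the mannose receptor family, 3 of 4 genes, Mrc1 among them, were called higher. Mrc2, the collagen receptor Endo180, rose by 6.61, close to the 6.48 of Mrc1, from 0.725 ± 0.281 to 68.0 ± 2.90 CPM. Ly75, the DEC205 receptor, fell by 0.48 (limma adjusted p = 0.0253), a call lost under 5 alternatives at adjusted p of 0.0523 to 0.13. Of 14 genes of apoptotic cell uptake, 10 were called higher and 1 lower. Axl, a receptor tyrosine kinase for coated dying cells, fell from 1352 to 827 CPM, and its call was lost at adjusted p of 0.0541 to 0.158 under some alternatives.

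Gpnmb belongs to the lipid-associated macrophage genes, of which 17 of 22 were called higher and 1 lower, with a median change of 2.93. Gpnmb, Fabp5, Ctsl and Plin2 were the 4 that were not called. The calls of Cd63 and Lgals3 each held in 8 of 14 alternatives, and that of Axl, the gene called lower, in 9. Clec7a, the beta-glucan receptor, rose by 13.41, and Spp1, osteopontin, rose from 167 ± 58.0 to 4221 ± 406.1 CPM, by 4.73 (4.725 before rounding). Factors of the MITF family are known to drive Gpnmb. Of the 10 genes of that family and its pigment or lysosome targets in the table, 9 were called higher, with Pmel not called. Scaled to the carcinoma epithelium list, with the shift described for the proteases, Tfeb, Tfe3, Mcoln1 and Lamp1 were not called (limma adjusted p of 0.639 to 0.996). Tfeb, Mcoln1 and Lamp1 were also not called without tumour library 3. Mitf rose by 2.45, and Tfec, its macrophage relative, had 0 cultured reads and was at least 723-fold higher. Of 6 binding partners of GPNMB, 4 were called higher, among them Cd44, by 1.20. With epithelium scaling, Cd44 and Sdc4 of these were not called (limma adjusted p = 0.298 and 0.787). Melanocyte markers had 1 of 6 genes in the table, Pmel, at 0.656 CPM in the tumour libraries.

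**Figure D4:**
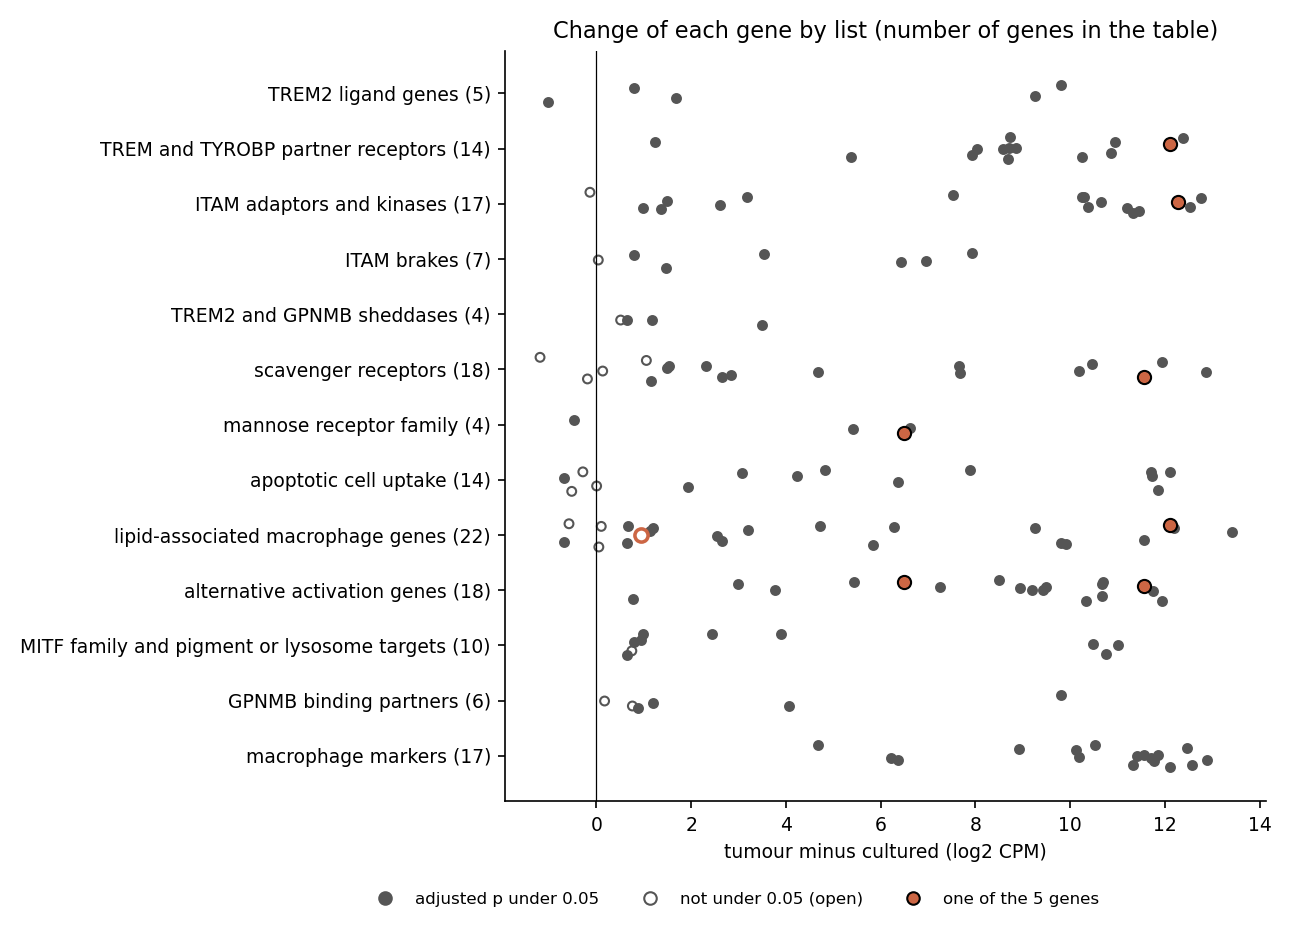
Change of each gene (tumour minus cultured, log2 CPM) by list, with filled points for limma adjusted p under 0.05 and the 5 genes in colour. Gpnmb is the only open coloured point, and the macrophage markers lie to the right, with a median of 11.40.

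Genes with a profile most like each of the 5 were found by the Euclidean distance between mean-centred log2 profiles over the 6 libraries, among genes with a tumour mean of at least 4. For Trem2 they were Cebpa at 0.19, Nrros at 0.23 and Itga9 at 0.32. Each of these also had 1 cultured read, in cultured library 3, so the likeness in culture rests on single reads. For Msr1 they were Gatm at 0.17, Fcgr3 at 0.50 and Cd72 at 0.51, and for Tyrobp H2-Eb1 and H2-Ea-ps at 0.63 and Entpd1 at 0.78. For Mrc1 they were Vcan at 0.74, Dok2 at 0.79 and Aoc3 at 0.94. For Gpnmb they were Slc16a6 at 0.99, Egln3 next and Narf at 1.04, the 3 largest distances among the 15 named.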

How the data were processed

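The table holds 6 libraries, 3 cultured and 3 tumour. The authors deposited log2 CPM per gene symbol, in the form of limma's voom function with TMM scaling and 0.5 reads added. Reads were aligned with HISAT to mm10 and counted with HTSeq, per the submitters' processing notes, and versions are not given in the sources used here. Solving the voom form gave whole reads within 0.01 in all values, and CPM, read counts and lengths in GENCODE vM21 were used for description only.

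The deposited log2 values were fitted by group in limma 3.58.1 (R 4.3.3; two-sided, variance trend, Benjamini-Hochberg over 13912 genes, threshold 0.05), after the fit had been tested on simulated data. The 5 genes and all lists were chosen with earlier results of these data known. All 5 genes are named, with, from each list, up to 4 called genes of largest change, up to 2 of highest tumour level, and genes named for their role. A fold against 0 cultured reads uses a floor of 3 reads over the group. Planned protein sequence features were not computed.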

Additional observations from a re-analysis of the deposited data

How the results depend on the processing

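Mrc1, Msr1, Trem2 and Tyrobp kept their direction and their call in 14 of 14 alternatives, with log2 changes of 5.68 to 6.95, 8.56 to 11.88, 6.29 to 12.75 and 7.71 to 12.92. Gpnmb was called with library weights (1.36, adjusted p = 0.0412) and without cultured library 2 (1.60, adjusted p = 0.0246), so 5 of 5 genes were called there. Leaving out 1 library at a time gave Gpnmb changes of 0.55 to 1.60. Genes higher in tumour numbered 4099, or 2637 when scaled to the carcinoma epithelium list, and 3301 to 4625 when 1 library was left out. Genes lower numbered 2612, or 5513 under quantile normalization, 6664 with epithelium scaling, and 1520 to 3301 when 1 library was left out (1558 without tumour library 1, 1520 without tumour library 3). The higher share of all calls was 61.1%, and 48.1% with median centring, 35.2% with quantile normalization and 28.4% with epithelium scaling, as the median change of all genes moved from 0.08 to -0.14, -0.32 and -0.72. Epithelium scaling subtracted the median log2 CPM of the 11 epithelial genes in each library. It was 6.43 to 6.85 in culture, the Epcam value, and 7.23 to 7.66 in the tumour libraries, the Krt14 or Cdh1 value. The setting thus lowered tumour values against cultured ones, although the median change of the 11 genes was -0.24. Calls that differ with epithelium scaling carry this shift. For median centring and quantile normalization the cause was not tested. Relative to Adgre1, Csf1r and Fcgr1 alone, the range over tumour libraries was 1.36 for Gpnmb (0.85 with all markers) and 0.66 for Tyrobp (0.38). Per kb of the longest transcript Msr1 was at 119 CPM and Gpnmb at 3.82, and per kb of the principal transcript, chosen after seeing the data, Msr1 was at 303, Trem2 at 72.7 and Gpnmb at 3.82, because the lengths are shorter. Of 44 counts of calls in the lists, 17 moved by over 1.5 times under some alternative. Depth limits Trem2, Tyrobp and Msr1 in culture, where they had 1, 6 and 17 reads. No paired analysis was possible because the cultured and tumour libraries have no number in common.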

Other observations

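Genes of classical macrophage activation also rose in the tumour libraries, with 11 of 13 called higher and 0 lower and a median change of 7.93, or 7.05 with genes of 0 cultured reads at their bound. Il1b, the interleukin-1 beta gene, rose from 1.76 ± 1.44 to 2096 ± 1125 CPM (SD, n = 3 each), and Cxcl9, an interferon-induced chemokine, rose by 10.88 on the log2 scale. Ptgs2, which encodes cyclooxygenase-2, was at 1662 ± 965.5 CPM in culture and 1614 ± 652 CPM in the tumour libraries and was not called, and Il23a was not called either.

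All 6 osteoclast genes in the table were called higher, with a median change of 6.14, and 4 of them had fewer than 61 cultured reads. Ctsk, the collagen-cleaving cathepsin K, had 407, 107 and 156 CPM in tumour libraries 1, 2 and 3 and rose by 10.75. Acp5, tartrate-resistant acid phosphatase, rose by 3.90. Atp6v0d2, which is in the list of MITF targets and not among these 6 genes and encodes a subunit of the lysosomal proton pump, had 0 cultured reads and was at least 1186-fold higher.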
